A study of Mus musculus with 20 samples.

Results

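The comparison set regulatory T cells (Tregs) that had been given interleukin-2 (IL-2) for 4 hr against Tregs given it for 90 min. It thus followed the change in RNA from early to late without the unstimulated cells. It compares 6 of the 20 RNA-seq libraries of the experiment, 3 at each time, chosen by their labels. Tregs were enriched as CD4+ cells and sorted by GFP from B6-Foxp3EGFP mice, in which GFP reports the transcription factor Foxp3. The labels give spleen and lymph node as the source, C57BL/6N as the strain and 200 nM as the cytokine dose. Age and sex are not in the labels of these libraries, the RNA showed both sexes, and the sources used here do not say how many mice were used or whether they were pooled. The same 2 times exist for IL-2-REH, a partial agonist that binds the common gamma chain less well than IL-2, at 200 nM in Tregs (3 libraries at each time), and for IL-2 in CD8+ T cells (1 library at each time). The IL-2-REH libraries of Tregs also entered the main fits, which drew the gene filter, scaling and spread from 12 libraries. The study took its CD8+ T cells from C57BL/6J mice with an isolation kit, so they differ from the Tregs in mice and isolation. Every group compared had received a cytokine. No library came from cells kept for these times without cytokine, so time with IL-2 and time in culture cannot be told apart.

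IL-2 acts on T cells by joining IL-2Rβ and the common gamma chain, and Tregs also carry IL-2Rα (CD25), which raises their affinity for it. The paired chains activate JAK kinases, which phosphorylate STAT5, and STAT5 then enters the nucleus and switches on its target genes. Early transcripts of activated lymphocytes, such as those of the EGR and NR4A families, are short-lived messages, whereas those for biosynthesis and division are usually slower to change.

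The levels below are RPKM, that is, reads scaled by exon length and by the mapped reads of the library, so that levels of different genes are on a scale per length. Reads on genes ranged from 41897956 to 50405633 in the 90 min libraries and from 20201392 to 63903764 in the 4 hr libraries, the shallowest being replicate 3 at 4 hr. In all 6 libraries Foxp3 stood between 126 and 252 RPKM, and Cd8a, which marks CD8+ T cells, stayed under 1 RPKM. The other marker of CD8+ T cells, Cd8b1, stood between 4.34 and 6.49 RPKM. RNA of other cells was present. The 10 erythroid markers summed to between 10.3 and 181 RPKM at 90 min and between 9.24 and 191 RPKM at 4 hr, the highest library being replicate 3 at both times, and the neutrophil markers summed to 133 RPKM in replicate 3 at 90 min and 61.7 RPKM in replicate 3 at 4 hr, against 6.17 to 7.98 RPKM in the other libraries. Macrophage and monocyte markers were lower at 4 hr in each pair, at 12.4, 37.9 and 24.2 RPKM after 17.1, 59.6 and 46.1 RPKM. In the paired fit described next, 4 of the 14 tested (Lyz2, Cd14, Vcam1 and Cd5l) fell. So did 2 of the 10 erythroid markers (Car1 and Car2) and 1 of the 6 neutrophil markers (S100a8), beside 5.61% of all genes. None of these markers rose in that fit. Markers of B cells summed to 1.89 to 10.5 RPKM, and those of NK and dendritic cells to at most 5.17 RPKM, in the 6 libraries. The part of these cells in the results was not tested. Sex differed by replicate number, since Xist, the transcript that silences an X chromosome in female cells, stood at 50.2 and 44.6 RPKM in replicate 2 (90 min and 4 hr) and under 0.05 RPKM in replicates 1 and 3, whereas the Y-linked Ddx3y stood at 43.3 and 22.9 RPKM in replicate 1, 78.6 and 24.3 RPKM in replicate 3 and under 0.05 RPKM in replicate 2. The study's list of strains gives the reporter mice as female, which goes against replicates 1 and 3. Each pair held libraries of the same sex, and sex and replicate number cannot be told apart. In bulk RNA, fewer cells of a type and less RNA per cell cannot be told apart.

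Only a small set of genes separated the times beyond the spread between replicates when the libraries were taken as independent. Of 14719 genes tested with edgeR, 24 passed an adjusted p of 0.05 (0.163% of all genes). At 4 hr 11 of them were higher (0.0747%) and 13 lower (0.0883%). All 24 moved the same way in all 3 same-numbered pairs, where 19.6% of all genes were higher and 19.2% lower. The 24 were chosen on these same libraries, which favours such agreement. The count was 0 when replicate 2 or replicate 3 was left out (1602 and 1118 genes at an unadjusted p under 0.05). It was 0 with only the 6 IL-2 libraries in the fit (2198 unadjusted), 0 with all 15 Treg libraries (2551 unadjusted) and 1100 with DESeq2. Libraries that share a replicate number deviated together from their group means, and a fit with the replicate number as a block, called the paired fit here, passed 1428 genes (9.7% of all genes), 603 higher (4.1%) and 825 lower (5.61%), the 24 among them. Of the 1428, 288 rose and 369 fell by more than 1 on the log2 scale. The paired count was 393 without replicate 1, 680 without replicate 3 and 0 without replicate 2, where 3204 genes had an unadjusted p under 0.05. It was 278 and 170 without replicate 2 or replicate 3 of the 90 min group alone. With only the 6 IL-2 libraries in the fit, the paired count was 5. Statements below name the fit in which a gene passed.

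**Figure D1:**
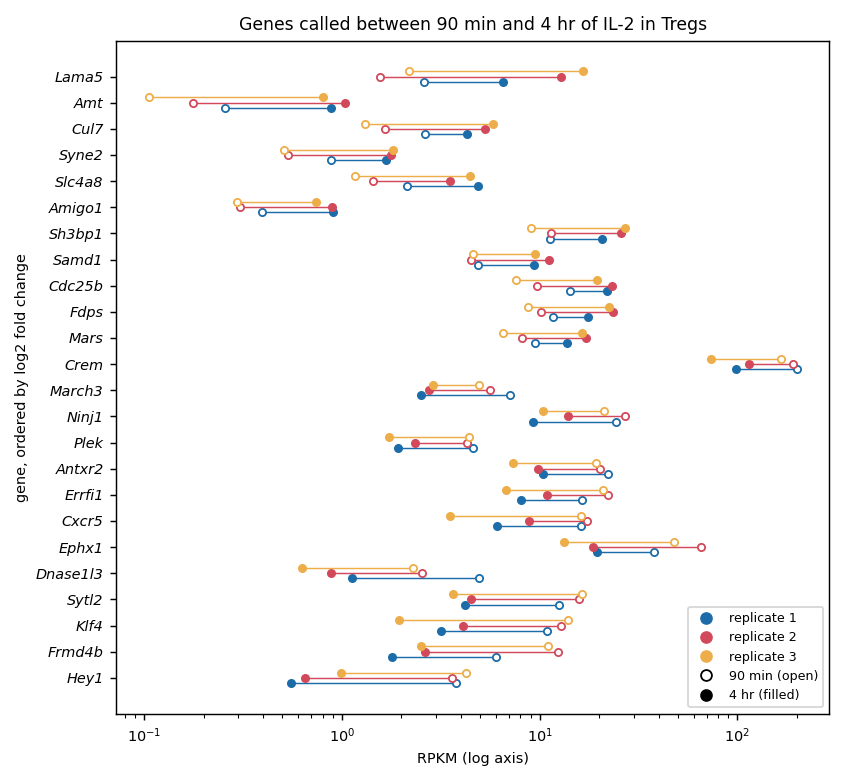
RPKM (log axis) of the 24 genes called without pairing, in each Treg library given IL-2 for 90 min (open) or 4 hr (filled), with lines joining libraries of the same replicate number. All 3 lines of each gene run the same way, to the left for the 13 lower genes and to the right for the 11 higher genes.

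The largest falls among the 24 were in regulators of transcription and in genes of membrane traffic and cell shape. Hey1 (chromosome 3, bases 8663359 to 8667256 of GRCm38), a transcriptional repressor of the Notch pathway, had 3.77, 3.61 and 4.26 RPKM at 90 min and 0.557, 0.649 and 0.988 RPKM at 4 hr. The times did not overlap, and Hey1 fell with a log2 fold change −2.49 ± 0.31 (SE), adjusted p = 0.0267. Klf4 (chromosome 4, bases 55527143 to 55532466), a zinc finger factor that restrains T cell proliferation, had 10.9, 12.9 and 13.8 RPKM at 90 min and 3.18, 4.12 and 1.94 RPKM at 4 hr. All 4 hr libraries lay below all 90 min libraries, with a log2 fold change −2.13 ± 0.32 (SE), adjusted p = 0.0443. Frmd4b, which encodes a scaffold protein with a FERM domain, had 6.05, 12.4 and 11 RPKM at 90 min and 1.79, 2.65 and 2.5 RPKM at 4 hr (log2 fold change −2.2 ± 0.34 (SE), adjusted p = 0.0443). Its lowest 90 min library, replicate 1, was still above every 4 hr library. Sytl2, whose product links Rab27 to secretory vesicles, fell in every pair from 12.5, 15.8 and 16.4 RPKM to 4.2, 4.5 and 3.66 RPKM, with the smallest adjusted p of the 24 (log2 fold change −1.95 ± 0.22 (SE), adjusted p = 0.0226).

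Genes for a nuclease, an enzyme and a homing receptor followed. Dnase1l3, a secreted DNase, had 4.95, 2.55 and 2.3 RPKM at 90 min and 1.13, 0.886 and 0.63 RPKM at 4 hr (log2 fold change −1.92 ± 0.28 (SE), adjusted p = 0.0443), with replicate 1 highest at both times. Ephx1, the microsomal epoxide hydrolase, was the most abundant of these 3 genes and had 37.8, 65.6 and 48 RPKM at 90 min and 19.5, 18.7 and 13.3 RPKM at 4 hr (log2 fold change −1.65 ± 0.28 (SE), adjusted p = 0.0472). Ephx1 and Errfi1 shared the adjusted p nearest to the threshold, and among the genes that shared the next value beyond it were Cxcr4 and Zbtb7b, the latter for the CD4 lineage factor ThPOK and named after its values were seen, with an adjusted p of 0.0506. Cxcr5, the receptor that leads lymphocytes into B cell follicles, was even at 90 min, at 16.2, 17.4 and 16.2 RPKM, and lower and more spread at 4 hr, at 6.09, 8.87 and 3.52 RPKM (log2 fold change −1.53 ± 0.25 (SE), adjusted p = 0.0443). An exon of Bcl9l overlaps the counted Cxcr5 transcript, so that some of its reads are uncertain.

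The other 6 lower genes fell by about as much as each other, from −1.32 for Errfi1, a feedback inhibitor of EGF receptors, to −1.04 for Crem, a cAMP-responsive factor. Crem was the most abundant of the 24 genes, with 200.0, 190.2 and 165.5 RPKM at 90 min and 98.7, 114 and 73.1 RPKM at 4 hr, and its groups did not overlap (log2 fold change −1.04 ± 0.16 (SE), adjusted p = 0.0443). It overlaps a predicted gene, Gm6225. Between them lay Antxr2, the anthrax toxin receptor of cell membranes (−1.23), Plek, a platelet and leukocyte substrate of protein kinase C (−1.23), Ninj1, which ruptures the plasma membrane of dying cells (−1.19), and the ubiquitin ligase gene March3 (−1.17), with adjusted p-values of 0.0443 to 0.0464.

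Among the 11 higher genes, the largest change was in an extracellular matrix gene. Lama5 (chromosome 2, bases 180176373 to 180225859), the laminin α5 chain of basement membranes, had 2.6, 1.57 and 2.19 RPKM at 90 min and 6.52, 12.9 and 16.5 RPKM at 4 hr, and every 4 hr library was above every 90 min library (log2 fold change 2.44 ± 0.36 (SE), adjusted p = 0.0443). Cul7, a cullin scaffold of a ubiquitin ligase, had 2.64, 1.65 and 1.32 RPKM at 90 min and 4.29, 5.31 and 5.8 RPKM at 4 hr (log2 fold change 1.43 ± 0.23 (SE), adjusted p = 0.0443), and Slc4a8, a sodium-dependent bicarbonate transporter, had 2.13, 1.44 and 1.17 RPKM at 90 min and 4.88, 3.52 and 4.47 RPKM at 4 hr (log2 fold change 1.41 ± 0.23 (SE), adjusted p = 0.0443). Neither overlapped between the times. Sh3bp1, a GTPase-activating protein for Rac, rose from 11.3, 11.4 and 9.1 RPKM to 20.7, 25.9 and 27 RPKM (log2 fold change 1.15 ± 0.18 (SE), adjusted p = 0.0443), although its exons overlap those of 2 other annotated genes.

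The remaining higher genes included enzymes of biosynthesis and a cell cycle phosphatase. Cdc25b, which activates cyclin-dependent kinases at entry into mitosis, had 14.2, 9.67 and 7.6 RPKM at 90 min and 22, 23.2 and 19.6 RPKM at 4 hr (log2 fold change 1.0 ± 0.17 (SE), adjusted p = 0.0454), and an exon of Spef1 overlaps it. Fdps, farnesyl diphosphate synthase of the cholesterol pathway, had 11.8, 10.2 and 8.76 RPKM at 90 min and 17.6, 23.5 and 22.4 RPKM at 4 hr (log2 fold change 0.99 ± 0.15 (SE), adjusted p = 0.0443). The counted Fdps transcript overlaps exons of Gm43738. Mars, the methionyl-tRNA synthetase, had 9.49, 8.12 and 6.57 RPKM at 90 min and 13.8, 17.2 and 16.4 RPKM at 4 hr (log2 fold change 0.92 ± 0.14 (SE), adjusted p = 0.0443), and its counted transcript overlaps exons of Ddit3. The groups of these 3 genes did not overlap. Samd1, a protein that binds unmethylated CpG islands, rose from 4.91, 4.48 and 4.59 RPKM to 9.34, 11.1 and 9.43 RPKM (log2 fold change 1.02 ± 0.16 (SE), adjusted p = 0.0443), but did not pass the paired fit with an offset for GC content (adjusted p = 0.0734). The other 3, named here because they belong to the 24, were under 2 RPKM in all 6 libraries, namely Amt of glycine cleavage (2.28), Syne2, which ties the nucleus to the cytoskeleton (1.42), and the adhesion gene Amigo1 (1.28).

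Promoters are shown for those of 20 called genes (the 8 higher ones with at least 2 RPKM at 4 hr and the 12 with the lowest fold change) that carried a motif of a fixed set within 250 bases before the RefSeq start. Of these 20 genes, 11 had a RefSeq promoter within 500 bases of the start of the counted transcript, and 6 of the 11 held a motif, 4 of lower and 2 of higher genes. The motifs were TTCNNNGAA (STAT), CACGTG (E-box), TGACGTCA (cAMP response element, CRE), TGANTCA (AP-1), TCACNCCAC (sterol) and CCAAT, searched on both strands. Each sequence, from RefSeq on GRCm38.p6, is given 5′ to 3′ along the gene with motif bases in capitals. The sequence of Ninj1 was shortened to 206 bases, and the others have 250 bases. Klf4 (chr4:55532476-55532725, minus strand) held an E-box, Errfi1 (chr4:150854820-150855069, plus strand) held a CRE and a CCAAT box, and a CCAAT box alone stood in Ephx1 (chr1:181017570-181017819, minus strand), Ninj1 (chr13:49187279-49187484, plus strand), Slc4a8 (chr15:100761497-100761746, plus strand) and Cdc25b (chr2:131186698-131186947, plus strand).
Klf4 (lower at 4 hr): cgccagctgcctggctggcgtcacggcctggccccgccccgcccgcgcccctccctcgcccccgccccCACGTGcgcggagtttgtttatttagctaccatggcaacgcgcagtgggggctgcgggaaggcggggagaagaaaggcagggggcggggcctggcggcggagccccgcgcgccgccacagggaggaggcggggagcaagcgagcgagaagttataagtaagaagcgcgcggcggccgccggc
Errfi1 (lower at 4 hr): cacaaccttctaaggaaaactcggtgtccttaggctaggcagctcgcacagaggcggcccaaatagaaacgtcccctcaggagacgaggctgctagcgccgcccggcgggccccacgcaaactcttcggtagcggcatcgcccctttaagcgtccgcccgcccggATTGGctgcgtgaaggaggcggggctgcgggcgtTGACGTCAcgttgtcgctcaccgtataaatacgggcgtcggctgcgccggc
Ephx1 (lower at 4 hr): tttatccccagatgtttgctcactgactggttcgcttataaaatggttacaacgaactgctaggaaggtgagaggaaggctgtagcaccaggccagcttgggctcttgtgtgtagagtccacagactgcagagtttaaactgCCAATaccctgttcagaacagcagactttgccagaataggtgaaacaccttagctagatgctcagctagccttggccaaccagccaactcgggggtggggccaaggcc
Ninj1 (lower at 4 hr): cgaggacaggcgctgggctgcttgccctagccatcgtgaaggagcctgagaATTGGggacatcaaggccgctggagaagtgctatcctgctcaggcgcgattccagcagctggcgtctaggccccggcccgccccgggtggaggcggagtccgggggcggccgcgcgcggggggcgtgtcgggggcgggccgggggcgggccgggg
Slc4a8 (higher at 4 hr): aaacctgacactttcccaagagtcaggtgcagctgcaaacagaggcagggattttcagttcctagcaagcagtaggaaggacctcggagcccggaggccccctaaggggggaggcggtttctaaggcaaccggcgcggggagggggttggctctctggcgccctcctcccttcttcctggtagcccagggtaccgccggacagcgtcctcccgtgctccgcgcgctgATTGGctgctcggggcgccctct
Cdc25b (higher at 4 hr): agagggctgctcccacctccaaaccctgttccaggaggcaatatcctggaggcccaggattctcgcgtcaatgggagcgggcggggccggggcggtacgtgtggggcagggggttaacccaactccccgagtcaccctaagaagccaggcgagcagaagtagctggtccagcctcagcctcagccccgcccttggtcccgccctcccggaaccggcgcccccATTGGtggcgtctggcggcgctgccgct

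Over the 10673 genes tested that had such a promoter, 2.73% held a CRE, as Errfi1 does. Of 594 promoters of genes that fell in the paired fit, 36 held one (6.06%), and of 449 promoters of genes that rose, 8 held one (1.78%). Of 21 promoters of immediate early genes, 4 held a CRE (19%), those of Btg2, Dusp1, Maff and Ppp1r15a. The CCAAT box stood in 36.1% of all promoters, in 41.4% of those of higher and 37.5% of those of lower genes, and in 18 of the 21 promoters of mitosis genes (85.7%). The STAT motif stood in 5.99% of all promoters, in 6.01% of those of genes that rose and in 5.72% of those of genes that fell. No test was made of these shares, and a match describes the letters only.

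Immediate early genes, the fast transcriptional targets of cell stimulation, held the lowest median of the 25 gene lists. Of 31 tested, 2 fell without pairing (Klf4 and Crem). In the paired fit 20 fell and 0 rose, beside 5.61% and 4.1% of all genes. The median log2 fold change was −0.84, beside 0.02 over all genes. In all 3 pairs 23 of the 31 were lower (74.2%), against 19.2% of all genes. The count of 20 became 24 with an offset for GC content.

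EGR and NR4A factors were among the members that fell furthest, beside Klf4. Egr2, a zinc finger factor induced by antigen receptors, had 10.5, 45.5 and 43.6 RPKM at 90 min and 2.53, 16.5 and 11.8 RPKM at 4 hr, and had the lowest p of the list (paired log2 fold change −1.87 ± 0.14 (SE), adjusted p = 0.000336). Replicate 1 was lowest at both times, so that the 4 hr levels of replicates 2 and 3 exceeded the 90 min level of replicate 1 and the groups overlapped, while each pair fell. Nr4a3, an orphan nuclear receptor of activated T cells, had 122, 405 and 321 RPKM at 90 min and 23.7, 147 and 63.9 RPKM at 4 hr (paired log2 fold change −2.14 ± 0.24 (SE), adjusted p = 0.00269), with the same overlap between replicate 1 at 90 min and replicate 2 at 4 hr. Egr3, a relative of Egr2, had 5.1, 21 and 17.9 RPKM at 90 min and 0.703, 11.2 and 4.66 RPKM at 4 hr (paired log2 fold change −1.97 ± 0.30 (SE), adjusted p = 0.00592). Without pairing, these genes had adjusted p-values of 0.279, 0.235 and 0.419, respectively.

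Other members fell by less or did not pass. The AP-1 genes Fos and Fosb fell (−1.03 and −1.16 in the paired fit), as did Junb (−0.77), whereas Jun (−0.07), Jund (0.07), Fosl1 (0.03) and Fosl2 (−0.51) did not pass. Egr1 (−1.54), Nr4a1 (−1.29) and Nr4a2 (−1.73) fell, and so did the MAP kinase phosphatases Dusp1 (−0.90) and Dusp5 (−0.90) and the antiproliferative gene Btg2 (−0.92). Pair 3 was above 0 for Maff, Ier2, Ier5, Jun and Jund, and pairs differed in size for most members.

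**Figure D2:**
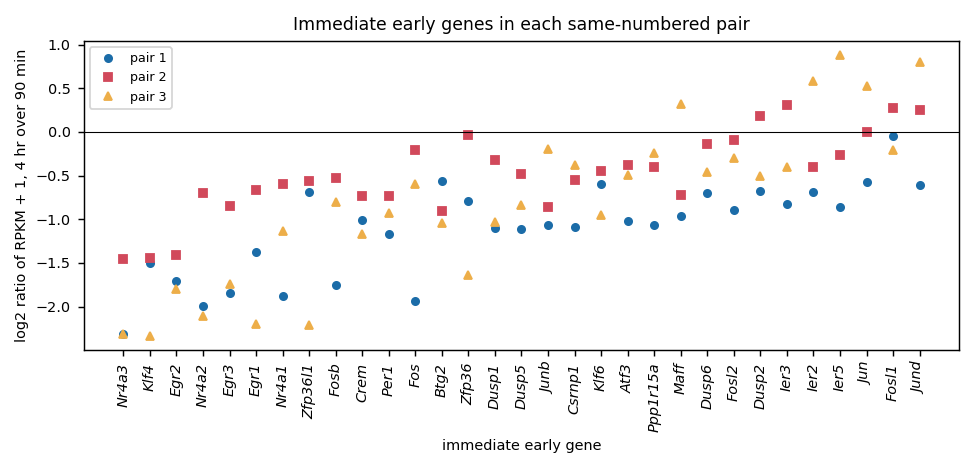
Log2 ratio of RPKM + 1, 4 hr over 90 min of IL-2, of the 31 immediate early genes (x axis, ordered by mean) in each same-numbered pair of Treg libraries. In 23 of the 31 genes all 3 points lie below 0.

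Known targets of IL-2 and STAT5 that passed mostly fell. Of 32 tested, 0 passed without pairing, 1 rose and 8 fell in the paired fit, and the median was −0.34. Over all genes, 4.1% rose and 5.61% fell in that fit. With the GC offset 2 rose and 14 fell, beside 739 and 1022 of 14403 genes. Ecm1, a secreted matrix protein that lymphocytes need to leave lymph nodes, had 145, 177 and 173 RPKM at 90 min and 263, 530.1 and 389.7 RPKM at 4 hr, all higher at 4 hr (paired log2 fold change 1.15 ± 0.17 (SE), adjusted p = 0.00571). Il10, the suppressive cytokine of Tregs, had 11.1, 19.6 and 17 RPKM at 90 min and 4.73, 8.52 and 4.75 RPKM at 4 hr without overlap (paired log2 fold change −1.48 ± 0.19 (SE), adjusted p = 0.00371). Nfil3, a basic leucine zipper factor, had 90.6, 101 and 91.1 RPKM at 90 min and 45.4, 61.4 and 57.8 RPKM at 4 hr (paired log2 fold change −0.86 ± 0.13 (SE), adjusted p = 0.00592). Irf4, a factor of effector Tregs, had 31.4, 82.7 and 85 RPKM at 90 min and 13.2, 51 and 29.4 RPKM at 4 hr (paired log2 fold change −1.23 ± 0.19 (SE), adjusted p = 0.00592), the groups overlapping through replicate 1 at 90 min. The feedback inhibitors Cish (−0.56) and Socs3 (−0.56) fell, as did Gfi1 (−0.78), Icos (−1.0) and Ctla4 (−1.26), whereas Socs1 (0.15), Socs2 (−0.04) and Pim1 (−0.06) did not pass.

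Of the genes of Treg identity and suppression, 26 were tested, of which 0 passed without pairing, 1 rose and 6 fell in the paired fit (median −0.41). The shares over all genes in that fit were 4.1% higher and 5.61% lower. Ctla4, the inhibitory receptor that binds CD80 and CD86, had 386, 589 and 498 RPKM at 90 min and 235, 329.5 and 106 RPKM at 4 hr (paired log2 fold change −1.26 ± 0.29 (SE), adjusted p = 0.026), and fell without overlap. Areg, amphiregulin, a growth factor for tissue repair, had 11.9, 15.5 and 10.8 RPKM at 90 min and 4.54, 9.3 and 4.01 RPKM at 4 hr (paired log2 fold change −1.24 ± 0.18 (SE), adjusted p = 0.00571). Lag3, a receptor for MHC class II, had 5.65, 9.3 and 7.11 RPKM at 90 min and 2.06, 3.5 and 4.58 RPKM at 4 hr (paired log2 fold change −1.24 ± 0.21 (SE), adjusted p = 0.00806). Itgae (CD103, −1.35) and Fgl2 (−0.92) were the other members that fell beside Il10, and Capg, an actin-capping protein, was the one that rose (paired log2 fold change 0.86 ± 0.22 (SE), adjusted p = 0.0372). Neither Capg (adjusted p = 0.0575) nor Fgl2 (adjusted p = 0.283) passed with the GC offset. The fall of Ctla4 was the only one among the 6 Treg markers besides that of Cd4, and Foxp3, with 252, 146 and 126 RPKM at 90 min and 151, 194 and 211 RPKM at 4 hr, overlapped between the times (paired log2 fold change 0.10 ± 0.23 (SE), adjusted p = 0.797).

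The receptor for IL-2 itself did not pass at either fit. Il2ra had 175, 151 and 126 RPKM at 90 min and 197, 282 and 101 RPKM at 4 hr (paired log2 fold change 0.21 ± 0.21 (SE), adjusted p = 0.525). Il2rb, the signalling β chain, had 403, 308 and 239 RPKM at 90 min and 359.8, 436 and 243 RPKM at 4 hr (paired log2 fold change 0.05 ± 0.15 (SE), adjusted p = 0.84). Il2rg, the common gamma chain, had 222, 236 and 200.5 RPKM at 90 min and 134, 202 and 62.7 RPKM at 4 hr and was lower in each pair, just outside the threshold (paired log2 fold change −0.88 ± 0.25 (SE), adjusted p = 0.0505), and inside it with the GC offset (adjusted p = 0.0387).

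Other cytokine and chemokine receptors that passed fell, beside 5.61% of all genes that fell and 4.1% that rose in the paired fit. Of 34 tested, 12 fell and 0 rose in the paired fit, 1 of them (Cxcr5) also without pairing, with a median of −0.58. Cxcr4, the receptor for CXCL12, had 186, 208 and 227 RPKM at 90 min and 78.5, 100.5 and 48 RPKM at 4 hr without overlap (paired log2 fold change −1.53 ± 0.24 (SE), adjusted p = 0.00684). Ccr8, a receptor of tissue Tregs, had 59.5, 55.2 and 36.1 RPKM at 90 min and 20.5, 31.8 and 10.3 RPKM at 4 hr (paired log2 fold change −1.44 ± 0.21 (SE), adjusted p = 0.00571). Ccr6, the receptor for CCL20, had 25.8, 17.3 and 11 RPKM at 90 min and 13.8, 12 and 5.55 RPKM at 4 hr (paired log2 fold change −0.87 ± 0.16 (SE), adjusted p = 0.0114), its groups overlapping. The others that fell were Ccr9, Tgfbr1, Ifngr2, Il7r, Il18rap and the IL-1 family receptors Il1r1, Il1r2 and Il1rl1, between −1.64 and −0.68. The most abundant member, Ifngr1, stood at −0.14 and did not pass.

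Genes of quiescence and lymph node homing gave 10 that fell and 1 that rose of 26 in the paired fit, 0 without pairing (median −0.38). Of all genes, 5.61% fell and 4.1% rose in that fit. Rgs1, which dampens chemokine receptor signals, had 260.1, 422 and 429.6 RPKM at 90 min and 152, 173 and 94.6 RPKM at 4 hr (paired log2 fold change −1.48 ± 0.28 (SE), adjusted p = 0.0136). Btg1, an antiproliferative factor, had 213, 311 and 258 RPKM at 90 min and 135, 184 and 77.7 RPKM at 4 hr (paired log2 fold change −1.1 ± 0.22 (SE), adjusted p = 0.0161). Ccr7, the lymph node homing receptor, had 289, 396 and 238 RPKM at 90 min and 143, 316 and 144 RPKM at 4 hr (paired log2 fold change −0.75 ± 0.16 (SE), adjusted p = 0.0205), and its groups overlapped. Dtx1 (−1.69), Foxo1 (−0.82), Tob1 (−0.82) and Satb1 (−0.67) also fell, Bach2, a repressor that keeps T cells from effector fates, rose (paired log2 fold change 0.82 ± 0.19 (SE), adjusted p = 0.0273), and Klf2 (−0.22) and S1pr1 (−0.77) did not pass.

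Those NF-kB feedback and TNF superfamily genes that passed the paired fit fell. Over all genes, 5.61% fell and 4.1% rose in that fit, so the absence of rises in short lists says little. Of 19 genes of NF-kB subunits and feedback inhibitors, 4 fell and 0 rose in the paired fit, 10 with the GC offset, and 0 passed without pairing (median −0.32). Tnfaip3 (A20), the ubiquitin-editing inhibitor of NF-kB, had 239, 432 and 404 RPKM at 90 min and 88.3, 259 and 205 RPKM at 4 hr (paired log2 fold change −1.12 ± 0.19 (SE), adjusted p = 0.00793). Nfkbiz and Nfkbid, nuclear IκB proteins, fell by 1.09 and 1.23 on the log2 scale (adjusted p = 0.00354 and 0.00684), and Traf3, which holds back the alternative pathway, fell by 0.53 (adjusted p = 0.0308). Nfkbia, the most abundant member, stood at −0.56 (adjusted p = 0.104).

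Of 23 TNF superfamily ligands and receptors, 5 fell and 0 rose in the paired fit, and 0 passed without pairing (median −0.19). Cd40lg, the ligand by which T cells help B cells, had 8.63, 36.1 and 23.5 RPKM at 90 min and 2.17, 14.2 and 3.15 RPKM at 4 hr (paired log2 fold change −2.13 ± 0.32 (SE), adjusted p = 0.00592), with replicate 2 highest at both times. Fasl, the death ligand, had 4.57, 14.9 and 12.4 RPKM at 90 min and 1.74, 5.96 and 1.72 RPKM at 4 hr (paired log2 fold change −1.82 ± 0.31 (SE), adjusted p = 0.0084). The ligand genes Tnfsf4 (OX40L, −1.16) and Tnfsf11 (RANKL, −1.01) and the receptor gene Tnfrsf1b (−0.59) fell. The abundant costimulatory receptors Tnfrsf4 (OX40, −0.71) and Tnfrsf18 (GITR, 0.06) did not pass.

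**Figure D3:**
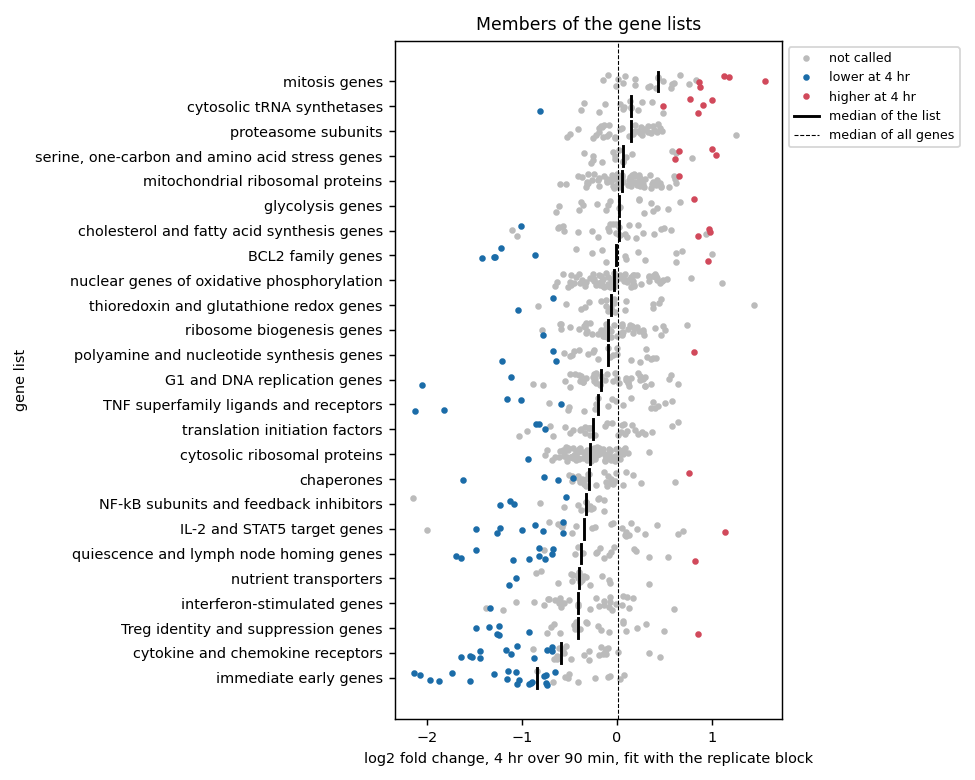
Log2 fold change, 4 hr over 90 min of IL-2 in the paired fit (x axis), of each tested member of the 25 gene lists (y axis, ordered by median), in red where higher, blue where lower and grey where not called, with the median of each list (bar) and of all genes (dashed line). The medians run from −0.84 for immediate early genes to 0.43 for mitosis genes.

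Mitosis genes held the highest median of the lists, 0.43, at low levels. Of 25 tested, 5 rose and 0 fell in the paired fit, beside 4.1% and 5.61% of all genes. With the GC offset 8 rose, and 0 passed without pairing. In all 3 pairs 13 were higher, beside 19.6% of all genes. Tpx2, a spindle assembly factor, had 1.5, 1.36 and 1.02 RPKM at 90 min and 2.37, 3.96 and 2.75 RPKM at 4 hr without overlap (paired log2 fold change 1.13 ± 0.18 (SE), adjusted p = 0.00684). Cenpf, a kinetochore protein, had 0.479, 0.474 and 0.314 RPKM at 90 min and 0.767, 1.69 and 1.54 RPKM at 4 hr (paired log2 fold change 1.56 ± 0.30 (SE), adjusted p = 0.013). Plk1, a mitotic kinase, had 1.6, 0.891 and 0.905 RPKM at 90 min and 2.08, 3.65 and 2.35 RPKM at 4 hr (paired log2 fold change 1.19 ± 0.30 (SE), adjusted p = 0.0326), and Cenpe (0.86) and Birc5 (0.88) were the others that rose. The most abundant members, Top2a (0.08) and Mki67 (0.19), did not pass.

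Of 47 genes of G1 and DNA replication, 2 fell, 0 rose and 0 passed without pairing (median −0.16). Pcna, the sliding clamp of DNA polymerases, had a mean of 149 RPKM ± 19.3 (SD, n = 3) at 90 min and 72.3, 101 and 46.7 RPKM at 4 hr, without overlap (paired log2 fold change −1.11 ± 0.23 (SE), adjusted p = 0.0175), and Ccne2, cyclin E2, had 0.916, 1.9 and 1.96 RPKM at 90 min and 0.252, 0.908 and 0.175 RPKM at 4 hr (paired log2 fold change −2.05 ± 0.39 (SE), adjusted p = 0.0139). Ccnd2, cyclin D2, stood at 0.13 and Cdk6, its kinase partner, at 0.64, neither passing.

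Among metabolic lists, tRNA synthetases and amino acid stress genes held a few rises, and most members did not pass. Of 20 cytosolic tRNA synthetases, 5 rose and 1 fell in the paired fit, 1 (Mars) without pairing (median 0.15). Over all genes, 4.1% rose and 5.61% fell in the paired fit, the background for the lists that follow too. Wars had 19.9, 9.3 and 8.59 RPKM at 90 min and 25.8, 29.6 and 19.3 RPKM at 4 hr (paired log2 fold change 1.01 ± 0.20 (SE), adjusted p = 0.014), Cars (0.86), Yars (0.77) and Lars (0.48) also rose, and Eprs, the most abundant, had 74.5, 87.2 and 96.2 RPKM at 90 min and 31.7, 65.2 and 65.3 RPKM at 4 hr and fell (paired log2 fold change −0.81 ± 0.16 (SE), adjusted p = 0.0141). Of 20 serine, one-carbon and amino acid stress genes, 4 rose, 0 fell and 0 passed without pairing (median 0.07), and with the GC offset 2 rose and the median was −0.03. The 4 were the pseudokinase Trib3 (paired log2 fold change 1.01 ± 0.22 (SE), adjusted p = 0.0224), mitochondrial PEP carboxykinase Pck2 (1.04), serine hydroxymethyltransferase Shmt2 (0.66) and the stress factor Ddit3 (0.61), the last pair not passing with the GC offset (adjusted p = 0.0818 and 0.0549), while Atf4 (−0.15), the factor that drives this programme, did not pass.

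Of 33 genes of cholesterol and fatty acid synthesis, 3 rose and 1 fell in the paired fit, 1 (Fdps) without pairing (median 0.03). Beside Fdps, Lss, lanosterol synthase, had 1.06, 1.31 and 1.08 RPKM at 90 min and 2.12, 2.61 and 2.4 RPKM at 4 hr without overlap (paired log2 fold change 0.97 ± 0.21 (SE), adjusted p = 0.0204). Scd2, a fatty acid desaturase, had 12.7, 15.2 and 12.6 RPKM at 90 min and 7.34, 9.62 and 4.73 RPKM at 4 hr and fell (paired log2 fold change −1.01 ± 0.19 (SE), adjusted p = 0.0136). Insig1 (−1.1) and Srebf2 (−0.01), which control the pathway, did not pass.

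The BCL2 family gave 5 falls and 1 rise of 18 in the paired fit, beside 5.61% and 4.1% of all genes. Without pairing 0 passed (median −0.01). Bax, a pore-forming killer protein, had 44.3, 31.3 and 21.8 RPKM at 90 min and 51.9, 59.7 and 82.4 RPKM at 4 hr (paired log2 fold change 0.96 ± 0.25 (SE), adjusted p = 0.0381), and Pmaip1 (Noxa), which neutralises Mcl1, had 21.2, 32.5 and 38.5 RPKM at 90 min and 10.9, 17.7 and 12.7 RPKM at 4 hr (paired log2 fold change −1.22 ± 0.21 (SE), adjusted p = 0.0084). Bcl2l11 (Bim) fell too (−0.86). The prosurvival paralogs Bcl2a1a (−1.42), Bcl2a1b (−1.28) and Bcl2a1d (−1.3) fell, but are near-identical, so that uniquely mapped reads may be split among them and they are uncertain as 3 genes. Bcl2 (0.09) and Mcl1 (−0.42) did not pass.

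In the lists for protein folding, transport and nucleotide supply, few members passed, and in none without pairing. Of 33 chaperones, the endoplasmic reticulum isomerase Pdia4 rose (paired log2 fold change 0.76 ± 0.14 (SE), adjusted p = 0.0106), and 4 fell, Hspa5 (BiP, −0.76), Dnajb9 (−1.61), Hspa4 (−0.47) and Hsp90aa1 (−0.62) (median −0.30). Of 21 nutrient transporters, the lactate transporter Slc16a1 (−1.13) and the amino acid transporter Slc38a2 (−1.06) fell, 7 members with the GC offset, and Slc3a2 (−0.35) did not pass (median −0.39). Of 25 polyamine and nucleotide synthesis genes, Pfas rose (0.81, but adjusted p = 0.0557 with the GC offset), Amd1 (−1.21), Prps1 (−0.67) and Adss (−0.64) fell, and Odc1 (−0.56) did not pass (median −0.10). Of 23 redox genes, Txnrd1 (−0.67) and Glrx (−1.04) fell, and the abundant Sod1 (−0.03) and Txnip (−0.02) did not pass (median −0.05). Of 20 glycolysis genes, Tpi1 rose (paired log2 fold change 0.81 ± 0.14 (SE), adjusted p = 0.00954), and Gapdh (−0.39) and Pkm (0.23) did not pass (median 0.03).

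The lists for the ribosome, the mitochondrion and the proteasome were almost without calls, and had 0 without pairing. In the paired fit, 1 of 55 ribosome biogenesis genes fell (Gnl3, −0.78, median −0.09), with Npm1 at −0.40 and Nop56 at −0.08 not passing. Of 36 translation initiation factors, 3 fell (Eif3j1, Eif5 and Eif4g2, between −0.85 and −0.75, median −0.25), and the abundant Eif1 (−1.03) and Eif5a (−0.05) did not pass. Of 84 cytosolic ribosomal proteins, Rpl22l1 fell (−0.94), and 42 were lower in all 3 pairs, beside 19.2% of all genes. Their median was −0.28, with Rpl12 at −0.28 and Rps14 at 0.34. Rps14 was far higher in replicate 3 at 4 hr (3315 RPKM) than in replicates 1 and 2 (951 and 1190 RPKM). Mrps27 rose (0.66) among 76 mitochondrial ribosomal proteins (median 0.05; Mrpl24 0.21 and Mrpl52 0.06, not passing). None passed of 81 nuclear genes of oxidative phosphorylation (median −0.03, with Atp5b at −0.03 and Cox4i1 at 0.17) or of 38 proteasome subunits (median 0.15, with Psmb8 at 0.42 and Psmb4 at −0.08). Of 33 interferon-stimulated genes, Ifih1 fell (−1.34, median −0.40), and Igtp (−0.18) did not pass.

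None of the effector genes studied in these cells passed either fit. Ramp3, a partner of the calcitonin-like receptor, had 186, 100.2 and 71.5 RPKM at 90 min and 70.4, 112 and 88.8 RPKM at 4 hr, and Gls2, a glutaminase, had 6.66, 3.69 and 4.03 RPKM at 90 min and 5.6, 7.68 and 3.38 RPKM at 4 hr. The pairs of neither moved the same way, and neither passed (paired log2 fold change −0.38 and 0.13). Myc, the growth regulator, had 53.8, 148 and 92.4 RPKM at 90 min and 33, 92.3 and 82 RPKM at 4 hr, lower in each pair and just outside the threshold (paired log2 fold change −0.59 ± 0.17 (SE), adjusted p = 0.051), and inside it with the GC offset (adjusted p = 0.0204). Gzmb, a cytotoxic protease, had 14.2, 8.62 and 5.5 RPKM at 90 min and 22.1, 22.8 and 6.13 RPKM at 4 hr and was higher in each pair without passing (paired log2 fold change 0.70 ± 0.29 (SE), adjusted p = 0.13). Ifng was low, at 0.591, 7.21 and 2.7 RPKM and 0.298, 2.47 and 0.1 RPKM (paired log2 fold change −2.0 ± 0.59 (SE), adjusted p = 0.0539), and Tnf (−0.50) and Lta (−0.23) overlapped between the times.

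The paired fit held further large changes in genes that stand out by replicate, and these genes were named after their values were seen. Itgb6, the β6 integrin chain, had 5.83, 1.21 and 1.76 RPKM at 90 min and 63.4, 5.73 and 55.1 RPKM at 4 hr, and Itih5, a hyaluronan-binding protein, had 5.47, 4.42 and 2.42 RPKM at 90 min and 27.8, 28.3 and 12.5 RPKM at 4 hr (paired log2 fold change 3.68 ± 0.54 (SE), adjusted p = 0.00571, and 2.39 ± 0.24 with adjusted p = 0.00191). Replicate 2 rose less than the others for Itgb6, Neurl1b (2.31), Stxbp6 (1.88), Rorb (2.41) and 5430437J10Rik (2.17). Stx2 (1.98), a syntaxin, Flywch1 (1.67) and Ager (1.64) also rose, and Foxj1 (2.33) and Msrb3 (1.71) did so mainly in replicates 2 and 3. Car1, an erythroid marker, fell from 0.596, 1.96 and 3.9 RPKM to 0.0708, 0.33 and 0.127 RPKM (paired log2 fold change −3.42 ± 0.50 (SE), adjusted p = 0.00571), highest in replicate 3 at 90 min, the library with the most neutrophil RNA. Gjb2 (−2.35), a connexin, the transcription subunit gene Taf4b (−2.09) and the elongation factor gene Ell2 (−1.88) fell as well.

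The direction of a change moved with the GC content of the transcript, most of all in pair 3. Genes that rose in the paired fit had a median GC content of 53.7%, those that fell 46.9%, and all tested genes 50.2%. Over 14403 genes (single genes of a library do not count as replicates, and the points share libraries), Pearson's r between the log2 ratio of 4 hr over 90 min and GC content was 0.0205 in pair 1, 0.204 in pair 2 and 0.462 in pair 3, which holds the shallowest library. With an offset that levels this relation in each library, the paired fit passed 1761 genes, 739 higher and 1022 lower, and 1213 of the 1411 paired calls with a known GC content were among them. Of the genes named above, Adss, Eif3j1, Hsp90aa1, Hspa4, Il7r and Rpl22l1 also lost the call with this offset (adjusted p-values of 0.0527 to 0.142), and Cdk6, Eif1, Fosl2, Gapdh, Nfkbia, Odc1 and Tnfrsf4 gained it. Whether the GC content or the biology of the genes set their direction was not tested.

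**Figure D4:**
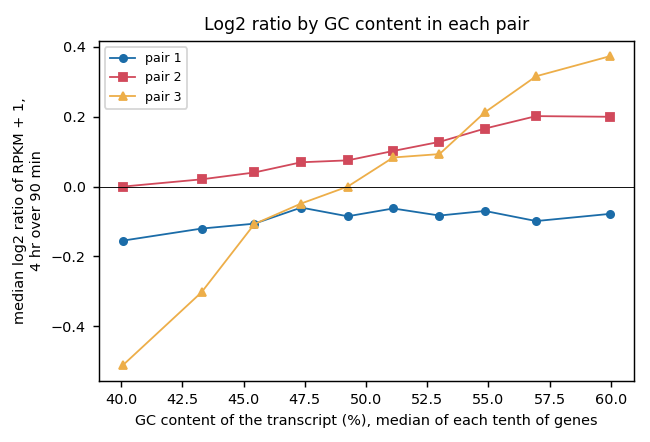
Median log2 ratio of RPKM + 1, 4 hr over 90 min of IL-2 (y axis), in bins of genes by GC content of the transcript (x axis, %), for each same-numbered pair. The line of pair 3 climbs with GC content, that of pair 2 climbs less, and that of pair 1 stays nearly flat.

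Whether the early to late shift differed between agonists was asked with the 6 matching IL-2-REH libraries, at the same dose and times. The difference in the time change passed for 0 of 14719 genes (0%) in edgeR, where 46 had an unadjusted p under 0.05 without pairing and 180 with it, and for 0 genes in DESeq2 (67 unadjusted). IL-2-REH itself gave 1 call (0.00679%) without pairing and 1439 (9.78%) in the paired fit, and all 24 genes above had the same sign with it, although the 24 were chosen on the IL-2 libraries, which favours a larger change there. How many of all genes had the same sign with both agonists was not counted. In the paired fit, 21 of the 24 had a larger absolute change with IL-2, the median being 1.35 beside 1.15 on the log2 scale, and Hey1, Klf4 and Cdc25b were the 3 others. Hey1 changed by −2.52 under IL-2 and −2.54 under IL-2-REH, and Klf4 by −2.07 and −2.11. Lama5 changed by 2.38 and 1.66, a difference of 0.71 with a 95% interval from −0.03 to 1.46. From lower to upper bound, these intervals had a median width of 1.19 on the log2 scale over the 24 genes, and 23 of the 24 included 0. The lowest bound among the 24 genes was −1.2 and the highest 1.54. The smallest difference that these libraries could have detected was not tested. The 5 genes with the lowest unadjusted p for the difference without pairing, of which none passed, were Ptpn13, Dst, Coch, Tnfrsf8 and Gsta4. For example, Dst, a cytoskeletal linker, changed by 1.24 under IL-2 and 0.10 under IL-2-REH, and the glutathione transferase gene Gsta4 by −1.05 and 0.12. The phosphatase gene Ptpn13 changed by −0.22 and −1.08, the death receptor family gene Tnfrsf8 (CD30) by 0.39 and −1.48, and Coch, under 1 RPKM at both times of IL-2, by 1.18 and −1.49.

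Medians of the gene lists with the partial agonist were near those with IL-2 for some lists and apart for others. Immediate early genes had a median of −1.0 with IL-2-REH, with 20 of 31 lower in its paired fit (5.85% of all genes). Mitosis genes had a median of 0.50, with 7 of 25 higher, where 1439 of 14719 genes passed and 861 of these were lower. Cytokine and chemokine receptors had −0.51, with 12 of 34 lower. Cytosolic ribosomal proteins had −0.06 beside −0.28 with IL-2, and ribosome biogenesis genes −0.28 (6 of 55 lower) beside −0.09. Mitochondrial ribosomal proteins had 0.24 beside 0.05. The tRNA synthetases had −0.03 beside 0.15, and amino acid stress genes −0.16 beside 0.07. Of the quiescence and homing genes, 5 of 26 were lower with IL-2-REH, where 10 were with IL-2. These medians were not tested against those with IL-2.

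**Figure D5:**
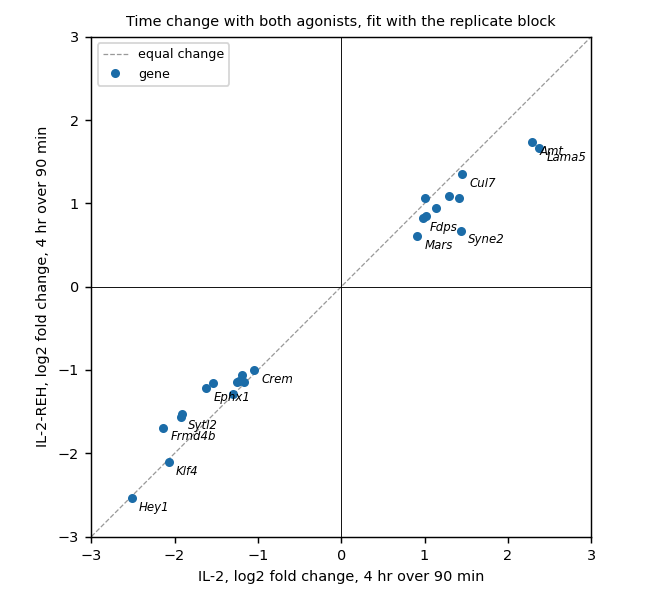
Paired log2 fold change, 4 hr over 90 min, for IL-2 (x axis) against IL-2-REH (y axis), for the 24 genes called with IL-2 without pairing, with the line of equal change (dashed). All 24 points lie in the quadrants of equal sign, Hey1 lowest and Lama5 and Amt highest.

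In CD8+ T cells, with 1 library at each time, no test or error is possible. Of 9929 genes with a mean of at least 1 RPKM, 8 passed an absolute log2 ratio of 2 (0.0806%), 3 higher and 5 lower at 4 hr. Of the 24 Treg genes, 17 reached that level in CD8+ T cells, and 16 of them had the same sign there. How many of all genes had the same sign in both cell types was not counted. Ephx1 had 17.9 RPKM at 90 min and 4.59 RPKM at 4 hr, Crem had 25.9 RPKM at 90 min and 10.5 RPKM at 4 hr and Sh3bp1 had 32.8 RPKM at 90 min and 63.7 RPKM at 4 hr. Of 29 immediate early genes at that level, 26 were lower at 4 hr, with a median log2 ratio of −0.69 beside −0.06 over all genes. The share of all genes that were lower was not counted, and their median was itself below 0. Myc had 32.3 RPKM at 90 min and 70 RPKM at 4 hr, the reverse of its order in Tregs, and Cdk6 had 6.63 RPKM at 90 min and 25.2 RPKM at 4 hr.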

How the data were processed

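RNA of sorted Tregs and of kit-isolated CD8+ T cells was sequenced as 50 base single-end reads from poly(A) libraries. For each library, the authors mapped reads to mm10 (GRCm38) and deposited raw read counts per RefSeq transcript, made from uniquely mapped reads, with RPKM values beside them. The submitters' processing notes name Bowtie2 2.2.6, TopHat2 2.1.1, SAMtools 0.1.8 and bedtools 2.25.0. Whether counting used strand is not given in the sources used here, so overlapping genes are uncertain. Overlaps are named above for some genes only. Others that share exons with another annotated gene include Foxp3 (with Ccdc22), Ddit3 (with Mars), Gls2 and Bcl2.

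Of 31682 transcripts, the one with most reads over all 20 libraries stood for each of 23992 symbols. Counts of the 12 Treg libraries given IL-2 or IL-2-REH were fitted together with the edgeR 4.0.16 quasi-likelihood test in R 4.3.3 (TMM scaling, filterByExpr, Benjamini-Hochberg adjustment, called under an adjusted p of 0.05), without a block. The labels give groups the same replicate numbers. Deviations of same-numbered libraries from their group means correlated with r of 0.217 to 0.618 in the 3 pairs of the IL-2 groups. In all 18 pairs of the 4 groups, r was 0.217 to 0.845. The numbers were therefore taken to pair the libraries, and a replicate block was fitted as the alternative. Between different numbers of the IL-2 groups the mean r was −0.236. Deviations cancel within a group, so this negative value follows from the positive same-number values and adds no evidence of pairing. Replicate 2 held RNA of female and replicates 1 and 3 of male cells, so replicate 2 did not come from the same mice as the others. Nothing says that replicates 1 and 3 came from separate mice, and p-values measure only the spread between these libraries. Other alternatives were DESeq2 1.42.0, limma 3.58.1 on log2(RPKM + 1) and log2(RPKM + 0.1), other filters, scalings, sets of libraries and a GC offset, the last chosen after seeing the data. Scripts were tested on simulated data. CD8+ T cells were compared by the ratio of RPKM + 1. RPKM was used for levels and counts for tests.

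Named genes were the 12 highest and 12 lowest called genes with the same direction in 3 pairs and a mean of at least 2 RPKM in the higher group, up to 4 called members of each list in each direction or its 2 most abundant, genes the study discusses, and the 5 with the lowest p for the agonist difference. Since few genes were called, the same rules were added on the paired fit after values were seen, there with at least 100 reads. Members and gene lists were chosen with earlier results of these data known. Some genes are not reported here.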

Additional observations from a re-analysis of the deposited data

How the results depend on the processing

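The count of genes that separated 4 hr from 90 min of IL-2, 24 without a block, depended on the fit. It was 1428 with the replicate block (pairing), 1100 with DESeq2, 48 with a mean RPKM of at least 5 (29 higher and 19 lower), 36 with DESeq2-type size factors, 6 without a filter on low counts, and 5 with limma on log2(RPKM + 1) or log2(RPKM + 0.1). It was 0 with all 15 Treg libraries (2551 genes at an unadjusted p under 0.05) and 0 with the 6 IL-2 libraries alone (2198 unadjusted), the latter rising to 5 with a block. Leaving out libraries gave 0 to 32 genes. It was 0 without replicate 2 (1602 unadjusted), without replicate 3 (1118), without replicate 2 or 3 at 90 min (1761 and 1413) and without replicate 2 at 4 hr (3300). The cause was not tested. Among alternatives chosen after seeing the data, a GC offset gave 48 without and 1761 with the block. With the block, the count was 393, 0 and 680 without replicate 1, 2 or 3, 998, 278 and 170 without each 90 min library, and 1446, 704 and 654 without each 4 hr library. In CD8+ T cells the count of 8 was 29 with a pseudocount of 0.1 and 195 past a log2 ratio of 1. Of 5041 values of the named genes under alternatives, 3988 kept their side of the threshold, 699 gained and 354 lost the call. No gene that was called changed sign, while 180 values of 27 genes called in neither of the fits compared did. Depth limits genes under 2 RPKM most, in the shallowest library, replicate 3 at 4 hr.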
